A study of Homo sapiens with 5 samples.

Results

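Small nucleolar and small Cajal body RNAs were selected on their measured level, as the genes whose symbols begin with SNORA, SNORD or SCARNA and whose mean log2 intensity over all arrays exceeded 5, with 1 probe set per gene. Of 14812 genes measured by named probe sets, 13 met the rule, and all 13 carry SCARNA symbols. A SCARNA symbol was carried by 21 measured genes, while 0 named probe sets carried a SNORA symbol and 0 a SNORD symbol, so the box H/ACA and box C/D small nucleolar RNAs were not analysed here and the 3 classes could not be set side by side. The 13 genes are therefore described as small Cajal body RNAs. Their mean level chose them and is given as a description. The rule used the mean over all arrays and no group label. Even so, SCARNA27, SCARNA8 and SCARNA3 exceeded 5 only through their shRB arrays and SCARNA2 only through its shControl arrays, so for these 4 the difference helped to decide membership.

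Small Cajal body RNAs are guide RNAs that pair with spliceosomal small nuclear RNAs and direct their 2′-O-methylation or pseudouridylation. Those with C and D boxes assemble with fibrillarin, those with H and ACA boxes with dyskerin, and a few carry both kinds of box. Most are cut out of the introns of host genes, and a short sequence signal retains them in Cajal bodies, nuclear compartments organised by coilin.

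Every array held RNA of LNCaP cells, an androgen-sensitive human prostate cancer line, transduced with retrovirus and kept under puromycin selection. The cells of 2 arrays carried a scrambled hairpin (shControl) and those of 3 arrays a hairpin against RB1 (shRB), and all had received 10 Gy of ionizing radiation 24 h before Trizol extraction of total RNA. No unirradiated cells were compared, and separate cultures are not mentioned for the arrays, so p-values measure only the spread between these arrays. The comparison asked which transcripts differ with RB1 knockdown in irradiated cells. RB1, the retinoblastoma gene, stood at 5.81 and 5.70 on the shControl arrays and at 5.16, 5.28 and 5.20 on the shRB arrays (log2 intensity). The groups did not overlap, and the difference of -0.54 did not pass limma over all genes (adjusted p = 0.0967).

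The deposited values are linear intensities, taken here to log2, with array medians of 26.65 to 28.06. None lay below 16, a log2 of 4. Whether 16 is an added constant or a lower limit is not known, and in either case differences of genes near it may be understated. Luminal prostate markers were mostly bright (6 of 11 listed were measured, with a median level of 8.65). FOLH1, prostate-specific membrane antigen, lay at 9.48 to 9.75, KRT18 at 7.80 to 8.38 and HOXB13 at 7.48 to 7.78. KRT8 was lower, at 6.05 to 6.81. The measured blood markers LYZ and CD14 lay between 4.21 and 4.94 and the fibroblast markers DCN and LUM between 4.15 and 4.64. The basal keratins KRT5 and KRT14 lay between 4.65 and 5.59 and the endothelial marker KDR between 4.04 and 4.56. VWF, also endothelial, was higher, at 6.12 and 6.41 in shControl and 5.94, 5.76 and 5.13 in shRB (difference -0.65, limma adjusted p = 0.164), and its part in the results was not tested. In RNA of bulk cells, fewer cells with a transcript and less of it per cell cannot be told apart.

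The sequences of the small Cajal body RNAs themselves were not used here. E2F factors, which RB1 protein restrains, bind letters such as TTTCGCGC and TTTGGCGC. The bases before the start of 3 host genes are shown, 2 chosen because a search found these letters there, and NSD2 because it holds SCARNA22, the member with the most positive difference. The sequences are the 250 bases upstream of the start in RefSeq (GRCh38.p14), read 5′ to 3′ on the gene's strand. Both strands were searched, and matches are in capitals. NSD2 is at chr4:1871143-1871392 (plus strand). EEF1E1 (chr6:8102549-8102798, minus strand) holds SCARNA27, and TIPIN (the start at chr15:66356686-66356935, minus strand) holds SCARNA14.
EEF1E1: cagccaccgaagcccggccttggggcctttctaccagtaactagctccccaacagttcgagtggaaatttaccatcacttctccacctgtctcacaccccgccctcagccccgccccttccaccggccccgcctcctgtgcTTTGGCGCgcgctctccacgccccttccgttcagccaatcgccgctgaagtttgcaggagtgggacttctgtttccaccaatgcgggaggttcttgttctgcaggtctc
TIPIN: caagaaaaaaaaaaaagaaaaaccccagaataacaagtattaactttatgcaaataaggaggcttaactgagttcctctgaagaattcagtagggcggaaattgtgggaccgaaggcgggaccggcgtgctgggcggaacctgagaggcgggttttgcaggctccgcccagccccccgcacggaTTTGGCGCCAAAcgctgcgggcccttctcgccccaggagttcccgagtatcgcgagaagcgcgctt
NSD2: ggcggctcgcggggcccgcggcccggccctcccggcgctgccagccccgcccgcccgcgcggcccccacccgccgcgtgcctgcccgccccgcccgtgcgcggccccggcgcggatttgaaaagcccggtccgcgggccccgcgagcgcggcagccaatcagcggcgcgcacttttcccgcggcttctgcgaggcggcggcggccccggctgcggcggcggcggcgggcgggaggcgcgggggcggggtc
NSD2, a histone H3 lysine methyltransferase gene, has 0 matches. EEF1E1, a component of the aminoacyl-tRNA synthetase complex, has 1 match, and the match also lies upstream of its readthrough transcript EEF1E1-BLOC1S5. TIPIN, a partner of the replication fork protein TIMELESS, has 2 overlapping matches on opposite strands at this start and 0 at its other listed start, chr15:66386718-66386967. Of the 13 upstream windows of host genes of members, 3 had a match, against 0.968% of all 35116 windows of the same length. The window of EEF1E1 and that of its readthrough share 1 match, and the windows of the other hosts, HAUS6 of SCARNA8 among them, had 0. A match describes letters only. Which strand the small Cajal body RNAs are read from is not given in the gene table used, so a host here is a gene whose span holds the RNA.

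By level, SCARNA9 was the brightest at a mean log2 intensity of 8.30, followed by SCARNA17 at 7.89, SCARNA22 at 7.23 and SCARNA14 at 6.87. SCARNA9 exceeded 94.5% of all measured genes in mean level. Just above the threshold lay SCARNA27 at 5.02 and SCARNA2 at 5.04, and just below it SCARNA11 at 4.98 and SCARNA1 at 4.95. Probe sets differ in affinity, so the order of levels between genes is not an order of abundance.

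**Figure D1:**
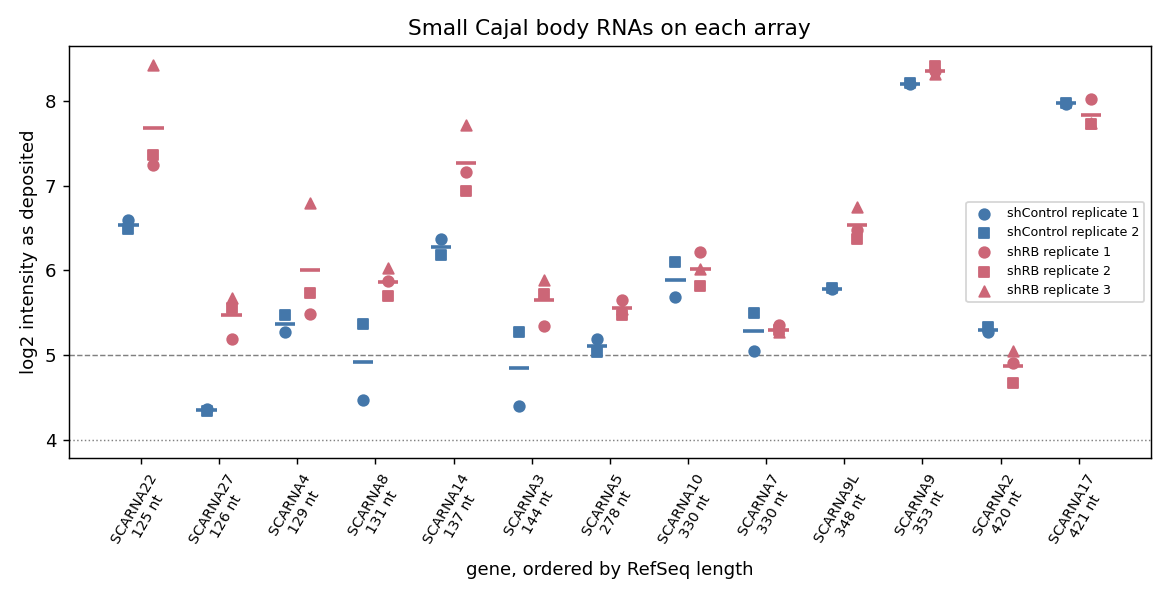
Log2 intensity of the 13 small Cajal body RNAs on each of the 5 arrays, ordered by RefSeq length; blue points are shControl, red points shRB, short bars group means, the dashed line the member threshold of 5 and the dotted line the apparent floor of 4. The 6 RNAs at the left, of 125 to 144 bases, have every shRB point above every shControl point, with shRB replicate 3 highest in each.

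Between the groups, 11 of the 13 small Cajal body RNAs had a positive log2 difference (shRB minus shControl) and 2 a negative one, where 53.8% of all genes were positive. Their median difference was 0.63, against 0.02 over all genes and 0.03 over the 8644 genes with a mean log2 above 5. Over the 9 members whose mean exceeded 5 in both groups it was 0.44, with 8 positive, and over all 21 measured SCARNA genes it was also 0.44. SCARNA27, 1 of the 4 members with a group mean below 5, alone passed limma with Benjamini-Hochberg adjustment over all genes at 0.05, as did 1.07% of all genes in either direction and 0.695% with a higher level in shRB. Arrays did not overlap, with shRB higher, in 9 members, against 20.6% of all genes (6 of the 9 just named), and with shRB lower in 1 member, against 15.4%, so that 10 of 13 members were apart in either direction, against 36% of all genes. An unadjusted p under 0.05 was reached by 8 members and by 18.1% of all genes. A difference of at least 0.5 was found in 7 members and in 4.89% of all genes. The shares were larger among the 8644 genes with a mean log2 above 5. Of these, 1.12% passed limma with a higher level in shRB and 24% did not overlap with shRB higher. An unadjusted p under 0.05 was reached by 1996 of them, and a difference of at least 0.5 by 6.94%. The members were chosen with earlier results known and share arrays, so these counts describe them and are not a test of the group.

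SCARNA27 is a 126-base RNA within the span of EEF1E1. On the log2 scale the shControl arrays read 4.36 and 4.34 and the shRB arrays 5.19, 5.55 and 5.67, so all shRB arrays lay above both controls by a wide margin. It rose by 1.12 (SE 0.17, 95% interval 0.75 to 1.50, limma adjusted p = 0.0132), or 2.17-fold on the deposited scale. Because the control level sits close to the floor, its distance from background and hence the fold in RNA are unknown. The ratio of mean intensities was 6.58 once 16 was subtracted from them. On log2 values with 16 subtracted and 4 added, the difference was 1.94 and did not pass (adjusted p = 0.0886). Removal of shRB replicate 2 (limma adjusted p = 0.105) or 3 (adjusted p = 0.135) also ended the call. Without shRB replicate 1 it stood (adjusted p = 0.0361). The difference ranged from 1.02 to 1.26 in the 5 fits that left out an array.

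Of the other short members, all of the H/ACA kind and none past the threshold, SCARNA22 (also ACA11) showed the most positive difference. The shControl arrays stood at 6.60 and 6.49 and the shRB arrays at 7.25, 7.36 and 8.43. The difference was 1.14 (SE 0.29, interval 0.50 to 1.77, limma adjusted p = 0.0905), ranked 13 of all genes from the most positive down. The shRB arrays spread widely (SD 0.65, n = 3), with replicate 3 far above the others, and without that array the difference was 0.76. SCARNA14 (U100) stood at 6.37 and 6.18 in shControl and at 7.16, 6.94 and 7.72 in shRB. Its groups were clearly apart, with a difference of 1.00 (SE 0.21, interval 0.53 to 1.46, limma adjusted p = 0.0527). It passed in limma with array medians subtracted (adjusted p = 0.0324), an intensity trend (0.00404) or dim genes left out (0.0189). It did not pass with quantile normalization (0.0801), averaged probe sets (0.0559), array weights (0.11), 16 subtracted (0.178) or a replicate block (0.198).

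In SCARNA8 (U92) and SCARNA3 (HBI-100) the shControl arrays disagreed with each other. SCARNA8 had 4.47 and 5.36 in shControl and 5.87, 5.70 and 6.03 in shRB. Its difference of 0.95 (SE 0.23, limma adjusted p = 0.0792) was 0.50 without shControl replicate 1 and 1.40 without replicate 2. SCARNA3 had 4.40 and 5.27 in shControl and 5.34, 5.72 and 5.89 in shRB. The lowest shRB array was thus barely above the higher control. Its difference of 0.81 (SE 0.24, limma adjusted p = 0.122) became 0.38 and 1.25 without the first and second control. SCARNA4 (ACA26) rested most on a single array, with 5.27 and 5.47 in shControl against 5.48, 5.73 and 6.80 in shRB. Its difference was 0.63 (SE 0.31, interval -0.04 to 1.31, limma adjusted p = 0.304) and 0.23 without shRB replicate 3.

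The 7 members of over 200 bases, all with C/D boxes or both kinds of box, gave a median difference of 0.13, with 5 values above 0 and 2 below. The 6 shorter ones gave a median of 0.97, with 6 values above 0. Of these, SCARNA27, SCARNA8 and SCARNA3 exceeded the level of 5 only through their shRB arrays. The long SCARNA2 did so only through its shControl arrays, so the level rule helped to set this split. Over all measured SCARNA genes, the 13 of at most 200 bases had a median of 0.67, with 12 positive and 1 negative. The 8 longer ones had a median of 0.14, with 6 positive and 2 negative. SCARNA9L departed from the other long members. This RNA lies on chromosome X within EIF1AX and is named for its likeness to SCARNA9. It had 5.78 and 5.79 in shControl and 6.48, 6.37 and 6.75 in shRB, with tight and well separated groups. The difference was 0.75 (SE 0.16, interval 0.40 to 1.10, limma adjusted p = 0.0525). It passed in limma with array medians subtracted (adjusted p = 0.0422), an intensity trend (0.02) or dim genes left out (0.0205). It did not pass with quantile normalization (0.0711), averaged probe sets (0.0549), array weights (0.109), 16 subtracted (0.159) or a replicate block (0.253). SCARNA9 (Z32), a C/D box guide for U2 small nuclear RNA, differed by only 0.16 (SE 0.14, limma adjusted p = 0.594). The controls read 8.20 and 8.21 and the shRB arrays 8.35, 8.41 and 8.32, which do not overlap but are close. Whether the probes for these related RNAs share signal was not tested.

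SCARNA2, a C/D box guide for U2, was the 1 member with every shRB array below both controls. It had 5.27 and 5.33 in shControl and 4.90, 4.67 and 5.05 in shRB, a difference of -0.43 (SE 0.16, interval -0.78 to -0.08) that did not pass (limma adjusted p = 0.196). SCARNA17 (U91), of nearly the same length, had 7.97 and 7.98 in shControl and 8.03, 7.73 and 7.74 in shRB. Its groups overlapped, at a difference of -0.14 (interval -0.49 to 0.20, limma adjusted p = 0.665). SCARNA7 (U90), a C/D box RNA, had 5.05 and 5.50 in shControl with 5.35, 5.29 and 5.27 in shRB, all 3 between the controls. The difference of 0.03 (interval -0.34 to 0.39, limma adjusted p = 0.951) has no settled sign, being -0.19 and 0.25 without the first and second shControl array and 0.00 after quantile normalization.

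The 2 members with both kinds of box lay within the range of the C/D members. SCARNA5 (U87) had 5.19 and 5.03 in shControl and 5.65, 5.47 and 5.54 in shRB, without overlap, a difference of 0.44 (SE 0.15, interval 0.12 to 0.77, limma adjusted p = 0.159). SCARNA10 (U85) had 5.68 and 6.10 in shControl and 6.22, 5.82 and 6.02 in shRB. These overlap, and the difference of 0.13 (interval -0.27 to 0.52, limma adjusted p = 0.745) turned to -0.08 without shControl replicate 1.

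**Figure D2:**
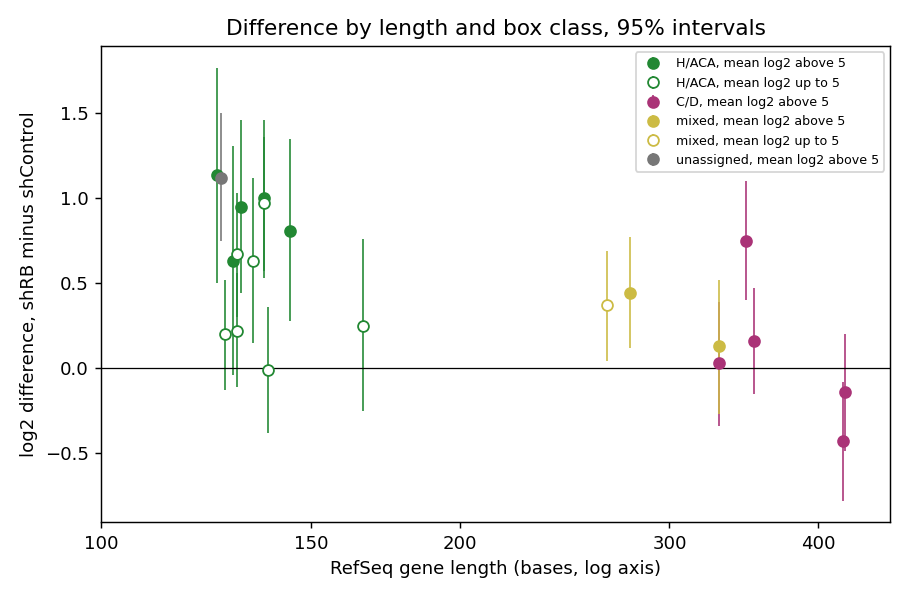
Log2 difference (shRB minus shControl) with its 95% interval from limma against RefSeq length on a log axis, coloured by box class; filled points are the 13 members and open points the 8 small Cajal body RNAs with a mean log2 of 5 or less. The H/ACA members sit between 0.63 and 1.14, and the C/D members between -0.43 and 0.75.

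Across the 13 members, log2 length and the log2 difference had a Pearson r of -0.87 and a Spearman rho of -0.86, as a description over RNAs measured on the same 5 arrays. Mean level and difference had an r of -0.08 and a rho of 0.04. The level rule helped to set the values with length, as it did the split by length. Without that rule, over all 21 measured small Cajal body RNAs, the r with length was -0.63 and the rho -0.62. The split by length was noticed in the data, and length and box class cannot be told apart here, because every member of at most 200 bases with an assigned class is of the H/ACA kind and every longer one is not.

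The 8 small Cajal body RNAs below the level threshold had 7 positive and 1 negative difference and a median of 0.31. SCARNA11 (ACA57), within the span of CHD4, passed, with 4.24 and 4.57 in shControl and 5.37, 5.13 and 5.61 in shRB, a difference of 0.97 (SE 0.18, limma adjusted p = 0.0327). SCARNA23 (ACA12), on chromosome X within POLA1, had 4.23 and 4.31 against 4.85, 4.77 and 5.20, a difference of 0.67 (limma adjusted p = 0.0845). SCARNA18 differed by 0.63 (adjusted p = 0.17) and SCARNA6 (U88), which like SCARNA5 lies in ATG16L1, by 0.37 (adjusted p = 0.225). SCARNA15 at 0.20, SCARNA20 at 0.22, SCARNA1 at 0.25 and SCARNA21 at -0.01 are also of the H/ACA kind. Short length or H and ACA boxes did not go with a large difference in every RNA measured, though SCARNA15 and SCARNA20 lay near the floor, where differences may be understated.

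**Figure D3:**
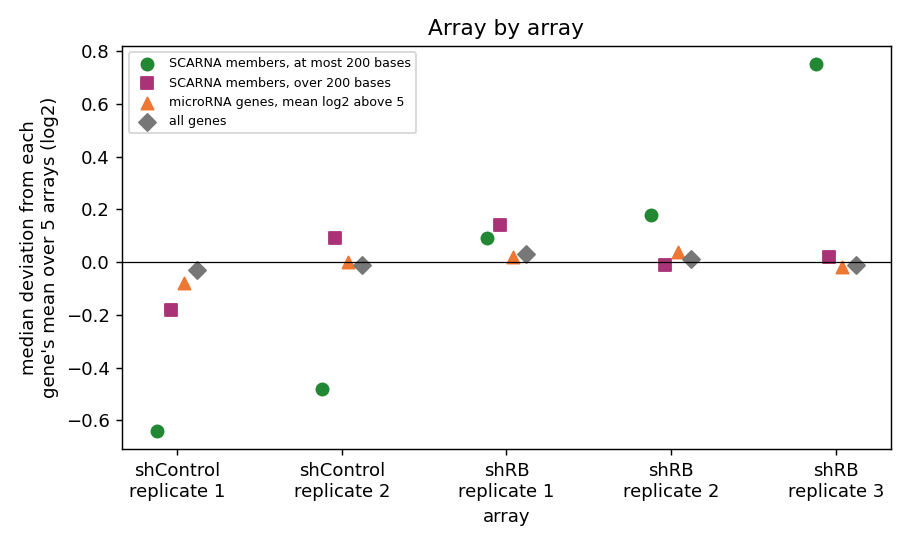
For each array, the median deviation of a set of genes from their own means over the 5 arrays, on the log2 scale, for the 6 short and 7 long small Cajal body RNAs, the 142 microRNA genes with a mean log2 above 5 and all genes. The short RNAs run from -0.64 in shControl replicate 1 to 0.75 in shRB replicate 3, while all genes stay between -0.03 and 0.03.

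The spread within the groups had the same size as some of the differences. The median deviation of the 6 short members from their own means was -0.64 and -0.48 in the shControl arrays and 0.09, 0.18 and 0.75 in shRB. In the 7 long members it was -0.18, 0.09, 0.14, -0.01 and 0.02, in the same order. Among the 13 measured small Cajal body RNAs of at most 200 bases, shRB replicate 3 was the highest array in 11 and shControl replicate 1 the lowest in 9. The recovery of short RNA was not measured directly, and its part in these differences was not tested.

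Other noncoding RNAs were set beside them. The 8 measured SNAR genes, a family of near-identical small noncoding RNAs of 119 to 128 bases, had a median difference of 0.08. Their differences ranged from -0.35 to 0.24. Of these genes, 0 passed the threshold in limma and 0 had an unadjusted p under 0.05, against 1.07% and 18.1% of all genes. The 142 microRNA genes with a mean log2 above 5 had a median of 0.07 and a range of -1.04 to 0.87. Of these, 2 passed with a higher and 3 with a lower level in shRB, against 1.12% and 0.555% of all genes above that level. VTRNA1-3, a vault RNA of 88 bases, had 7.19 and 6.87 in shControl and 7.27, 7.21 and 7.92 in shRB (difference 0.44, limma adjusted p = 0.314). Among longer RNAs of over 200 bases, TERC, the H/ACA RNA of telomerase that also carries the Cajal body signal, had 6.65 and 6.80 against 7.09, 6.70 and 7.27 (0.30, adjusted p = 0.422). RMRP, the RNA of RNase MRP, reached 10.30 in shRB replicate 3 against 9.79 to 9.96 on the other arrays. These 3 RNAs were thus highest on the same array as the short small Cajal body RNAs. RPPH1, the RNA of RNase P, was not, at 11.03 in that array and 10.90 to 11.36 elsewhere. The other measured vault RNAs lay near the floor and were highest on different arrays. VTRNA1-1 was highest on shRB replicate 3 at 4.52, VTRNA1-2 on shRB replicate 2 at 4.55 and VTRNA2-1 on shControl replicate 1 at 4.59.

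**Figure D4:**
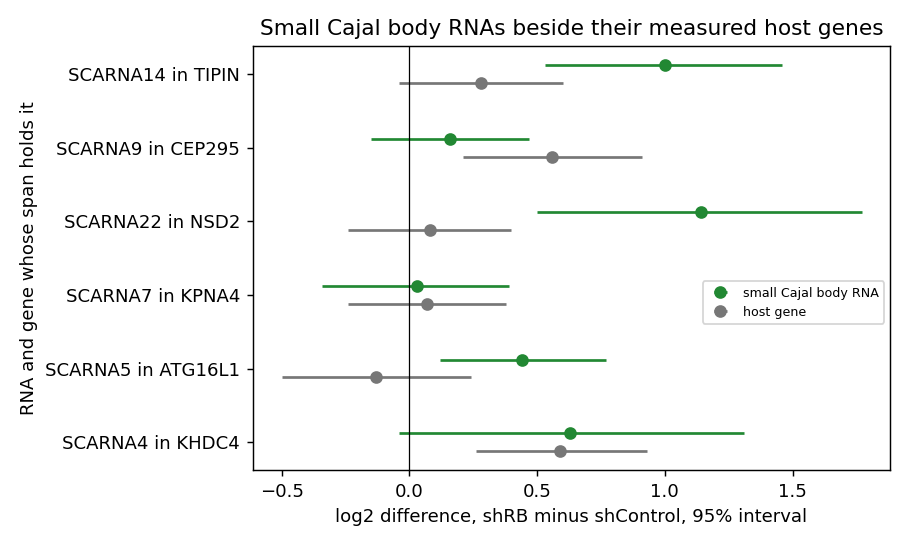
Log2 difference (shRB minus shControl) with its 95% interval for 6 small Cajal body RNAs (green) and the measured gene whose span holds each (grey). SCARNA22 and SCARNA14 lie to the right of their hosts, and SCARNA9 to the left of its host.

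Values of 6 host genes could be set beside those of the RNAs they hold. NSD2, host of SCARNA22, had 6.52 and 6.66 in shControl and 6.71, 6.70 and 6.59 in shRB, overlapping groups with a difference of 0.08 (SE 0.15, limma adjusted p = 0.819). TIPIN, host of SCARNA14, had 7.48 and 7.37 against 7.77, 7.65 and 7.69, a difference of 0.28 (adjusted p = 0.336). In ATG16L1, an autophagy gene that holds SCARNA5, the difference was -0.13 (adjusted p = 0.72), opposite in sign to that of the RNA. KHDC4, host of SCARNA4, had 5.99 and 5.88 in shControl and 6.44, 6.47 and 6.68 in shRB, apart from each other at 0.59 (adjusted p = 0.0918). This is close to the value for SCARNA4 over all arrays. Without shRB replicate 3, KHDC4 differed by 0.52 and SCARNA4 by 0.23. CEP295, a centriole protein gene that holds SCARNA9, differed by 0.56 (adjusted p = 0.11), more than its RNA did, and KPNA4, an importin gene that holds SCARNA7, by 0.07 (adjusted p = 0.839), close to its RNA. The difference between an RNA and its host was not tested, and the other host genes of members had no named probe set here.

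Genes for the proteins that bind, build or trim these RNAs gave no call in limma over all genes, where 1.07% of genes passed, 18.1% had an unadjusted p under 0.05 and 53.8% a positive difference. Of the box C/D particle proteins, 3 of 4 listed were measured and 0 passed, 1 at an unadjusted p under 0.05. FBL, the methyltransferase fibrillarin, had 10.11 and 10.03 in shControl and 9.82, 9.77 and 9.43 in shRB, lower on every shRB array, at -0.39 (SE 0.16, adjusted p = 0.237). SNU13 stood at 0.27 (adjusted p = 0.368) and NOP58 at -0.17 (adjusted p = 0.61). Of the H/ACA proteins and assembly factors, 5 of 6 listed were measured and 0 passed, 1 at an unadjusted p under 0.05. NAF1, which loads newly made H/ACA RNAs, had 6.20 and 5.81 in shControl and 6.56, 6.48 and 6.66 in shRB, higher on every shRB array, at 0.56 (SE 0.16, adjusted p = 0.114). The core proteins NOP10 and NHP2 differed by 0.13 and 0.06 and the early chaperone SHQ1 by -0.09.

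Of 23 listed Cajal body genes, 16 were measured, 13 with a positive and 3 with a negative difference, and 0 passed in limma, 5 at an unadjusted p under 0.05, beside 53.8% positive, 1.07% passing and 18.1% at that p over all genes. Their median was 0.16. USPL1, a SUMO isopeptidase of Cajal bodies, had 5.45 and 5.03 in shControl and 5.86, 6.13 and 5.66 in shRB, all above the controls, at 0.64 (adjusted p = 0.112). The elongation factor ELL differed by 0.55 (adjusted p = 0.0967) and SART3, a recycling factor of U4 and U6 particles, by -0.42 (adjusted p = 0.223). Among 19 measured genes of RNA end processing and decay of 26 listed, 0 passed in limma, 3 at an unadjusted p under 0.05, which is near the 18.1% of all genes, with a median of 0.03. PARN, a deadenylase that trims the ends of H/ACA RNAs, differed by 0.40 (adjusted p = 0.181) and DBR1, which opens intron lariats, by 0.40 (adjusted p = 0.266).

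The remaining lists concern ribosome production. Of 9 measured particle assembly genes of 12 listed, 0 passed in limma, 1 at an unadjusted p under 0.05, with RPAP3 at 0.37 (adjusted p = 0.232). Of 24 measured genes for early ribosomal RNA processing of 38 listed, 0 passed in limma, 4 at an unadjusted p under 0.05, again near the 18.1% of all genes. Arrays did not overlap in 6 of the 24 with shRB higher and in 9 with shRB lower, against 20.6% and 15.4% of all genes. There NOL6 stood at -0.51 (limma adjusted p = 0.121) and NOP14 at -0.39 (adjusted p = 0.201). TBL3 stood at 0.48 (adjusted p = 0.145) and HEATR1 at 0.46 (adjusted p = 0.158), and the list's median was 0.01. The 3 measured RNA polymerase I genes of 16 listed had a median of 0.19, with 0 passing and 0 at an unadjusted p under 0.05 in limma.

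**Figure D5:**
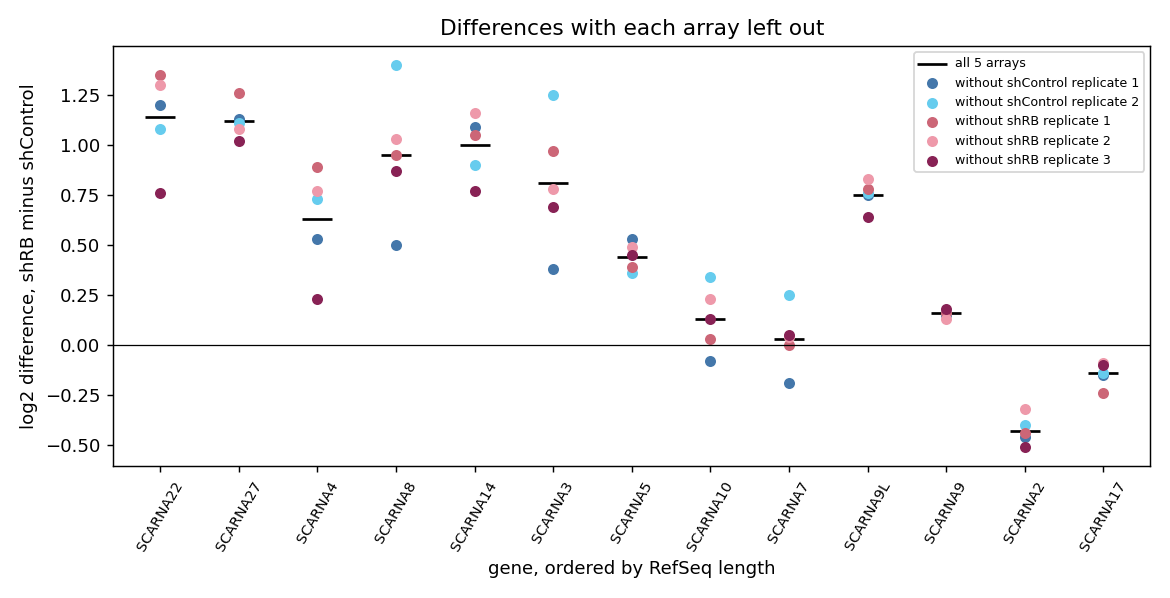
Log2 difference (shRB minus shControl) of each of the 13 members with all 5 arrays (black bar) and with each array left out in turn (points), ordered by RefSeq length. The 6 members of at most 200 bases stay above 0 in all 5 fits, and SCARNA7 and SCARNA10 fall below 0 without shControl replicate 1.

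With each array left out in turn, 11 of the 13 members kept the sign of their difference in all 5 fits, SCARNA7 and SCARNA10 being the exceptions. The 6 short members ranged from 0.23, for SCARNA4 without shRB replicate 3, to 1.40, for SCARNA8 without shControl replicate 2. Without shRB replicate 1, 1 member passed, beside 28 of all genes. Without shRB replicate 2, 0 members and 22 genes passed, with 7 members and 1979 genes at an unadjusted p under 0.05 in limma. Without shRB replicate 3, 0 members and 22 genes passed, with 8 members and 1761 genes at that p. A fit without either shControl array leaves 1 control, so its count of calls is not given. Removal of a shRB array thus lowered the number of genes called over the whole table, from 159 to between 22 and 28.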

How the data were processed

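The authors deposited linear probe set intensities of 5 single-colour arrays. How these were background-corrected, summarised and normalized, and on which build, is not given in the sources used here. Of 44607 probe sets, 15835 had 1 gene symbol, 0 several and 28772 were unnamed here. All 15835 matched the RefSeq gene table (GRCh38.p14) by Entrez identifier, which gave symbols, lengths, chromosomes and host spans. The probe set with the highest mean was used per gene. Box classes come from general knowledge, and SCARNA27 was left unassigned. Groups were compared on log2 values with limma 3.58.1 in R 4.3.3 (lmFit, eBayes, 2 groups). Tests were two-sided at 0.05, and Benjamini-Hochberg adjustment ran over 14812 genes. The fit was tested on simulated data with independent noise for each gene and array. That run holds no deviation shared by genes of an array, so it says nothing about such deviations here. Precision is limited by the number of arrays.

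The members, gene lists and rules were chosen with earlier results of these data known. Named were every SCARNA gene, measured hosts, RB1 and up to 4 genes with the smallest p per list. The other small RNAs were added after the data were seen. Tried as alternatives were array medians subtracted, quantile normalization, a filter on dim genes, array weights, averaged probe sets, robust variances with an intensity trend, 16 subtracted with 4 added, a replicate block, other level thresholds and leaving out each array.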

Additional observations from a re-analysis of the deposited data

How the results depend on the processing

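Across the 7 other settings of scale, filter, summary or variance and the block, the median difference of the 13 small Cajal body RNAs stayed positive, and 101 of 102 single values kept their sign. The exception was SCARNA7, at 0.00 after quantile normalization. The median was 0.80 with 16 subtracted and 4 added and 0.45 with the replicate block. It was 0.97 over members of at most 200 bases, 0.13 over longer ones and 0.44 over all 21 measured SCARNA genes, splits chosen after seeing the data. Without the level rule, it was 0.67 over measured SCARNA genes of at most 200 bases and 0.14 over longer ones. Members past the threshold numbered 4 with array medians subtracted, with an intensity trend and robust variances, and with dim genes left out. That filter tested 11 members and removed SCARNA27, so its 4 calls were SCARNA14, SCARNA22, SCARNA8 and SCARNA9L. They numbered 0 with 16 subtracted (limma, 8 at an unadjusted p under 0.05, beside 2373 of 14812 genes). They were 2 of 18 at a level above 4.5 and 2 of all 21. Above 6 they were 0 of 5 (3 at an unadjusted p under 0.05), and over 200 bases 0 of 7 (3). They were 0 of the 9 with both group means above 5 (4), an alternative chosen after seeing the data whose median was 0.44. In the limma fit that these subsets share, 18.1% of all genes had an unadjusted p under 0.05. Among all genes, 227 passed with array medians subtracted, 385 with dim genes left out, 426 with the trend and 88 with array weights. With 16 subtracted 13 passed, 4 of them higher in shRB, against 103 of 159. Without each array in turn the calls ranged from 22 to 411 genes and from 0 to 3 members, and the median from 0.45 to 0.78. SCARNA10 then ranged from -0.08 to 0.34, SCARNA7 from -0.19 to 0.25 and the host gene ATG16L1 from -0.37 to 0.11, the values that changed sign. With the replicate block 24 genes and 0 members passed (in limma, 8 members and 1756 genes at an unadjusted p under 0.05). No control shares the number of shRB replicate 3, so the block differences repeat those without that array and are not a separate check. Same-numbered arrays had deviations correlated at -0.02 and 0.05. The deviations of the 2 controls from their mean mirror each other, so these values rest on 1 contrast. Whether same-numbered arrays were handled together cannot be told from them. The causes were not tested. No value exists for SNORA or SNORD, which had no member. The distance of dim RNAs from the floor limits what can be read from their fold.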
